A study of Mus musculus with 3 samples.

Results

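Small nucleolar RNAs (snoRNAs) left short reads in all 3 small RNA libraries of CD1 mice, and these reads are described here gene by gene. The members are the annotated mouse genes whose symbols start with Snord (C/D box) or Snora (H/ACA box). The GENCODE M21 annotation holds 138 such symbols, 98 Snord and 40 Snora, after entries that share a symbol were merged, among 34788 annotated symbols with a read in any library. A read was counted when its whole sequence matched such a transcript in sense and it was not the sequence of a mature microRNA. The 3 libraries are mature sperm released from the cauda epididymis and washed in a buffer that lyses somatic cells, whole adult testis, and whole adult uterus, with 1 library each. The labels give no genotype, give age only as adult for testis and uterus, and name sperm alone as treated with that buffer. How many animals went into each library is not given in the labels. There is thus no replicate check. No test, standard error or p-value is given, and every interval is an exact 95% interval for counting error only, since reads copied by PCR are not independent molecules.

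C/D box snoRNAs carry a C box near the 5′ end and a D box near the 3′ end, and their partner proteins use them as guides for 2′-O-methylation of ribosomal and spliceosomal RNA. H/ACA box snoRNAs fold into hairpins followed by an H box and a terminal ACA, and they guide the conversion of uridine to pseudouridine. A few members of each class act in cleavage of the ribosomal RNA precursor. Most mammalian snoRNAs are cut out of the introns of host genes, many of which encode ribosomal proteins or factors of translation. Shorter RNAs cut from snoRNAs are known from many tissues. The targets named below are those described for the human counterparts.

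The transcripts that the results turn on are shown first, because the place of each read within them is the main subject. They are GENCODE transcripts on GRCm38, written 5′ to 3′. Capitals in the Snord sequences mark every TGATGA, which is the core of the C box consensus, and the last CTGA, which is the D box. Capitals in the Snora sequences mark the ACA that lies 3 bases from the end.
Snord60, chr17:24528476-24528553, plus strand: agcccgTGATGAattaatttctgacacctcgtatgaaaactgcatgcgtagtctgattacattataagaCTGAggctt
Snord21, chr5:107904555-107904648, plus strand: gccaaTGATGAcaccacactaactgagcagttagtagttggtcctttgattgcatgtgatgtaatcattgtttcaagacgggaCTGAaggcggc
Snord43, chr15:80082847-80082954, minus strand: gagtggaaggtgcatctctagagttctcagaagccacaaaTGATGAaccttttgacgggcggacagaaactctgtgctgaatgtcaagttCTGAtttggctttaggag
Snord69, chr14:31014287-31014366, minus strand: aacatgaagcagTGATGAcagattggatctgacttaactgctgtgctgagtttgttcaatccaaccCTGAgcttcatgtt
Snora73a, chr4:132352775-132352979, minus strand: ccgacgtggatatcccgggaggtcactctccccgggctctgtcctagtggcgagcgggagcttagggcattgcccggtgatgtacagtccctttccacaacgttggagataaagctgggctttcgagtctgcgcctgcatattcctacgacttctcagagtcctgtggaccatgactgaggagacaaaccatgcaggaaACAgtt
Snora16a, chr4:132309464-132309600, plus strand: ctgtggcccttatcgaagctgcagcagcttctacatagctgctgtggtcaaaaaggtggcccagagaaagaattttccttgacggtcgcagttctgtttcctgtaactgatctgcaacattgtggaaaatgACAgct
The letters TGATGA stood in the first 20 bases of 69 of the 98 Snord transcripts and of 0 of the 40 Snora transcripts, against 0.700% of all 141767 annotated transcripts. The letters CTGA stood in the last 20 bases of 96 Snord and 4 Snora transcripts, against 9.24% of all transcripts. An ACA followed by exactly 3 bases ended 0 Snord and 34 Snora transcripts, against 2.45% of all transcripts. The reverse complement of TGATGA was in the first 20 bases of 0 Snord and 0 Snora transcripts, and that of CTGA in the last 20 bases of 6 Snord and 6 Snora transcripts. TGATGA and CTGA can overlap as letters, but they were searched at opposite ends of the transcript. The annotated class names thus matched the boxes for most genes, although Snord43 has the annotation biotype microRNA and its C box core lies beyond the first 20 bases of its annotated transcript.

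The libraries differ widely in what else they hold, and this touches every level below. Depth was 15690722 reads for the sperm library, 23783785 for testis and 15876066 for uterus, so that 0 reads allow at most 0.191, 0.126 and 0.189 reads per 1000000 reads of the library (RPM), at 3 counts each. Annotated microRNAs took 2.42% of the sperm library, 0.692% of the testis library and 69.6% of the uterus library. Long reads, of 29 to 44 nt, took 81.35%, 79.76% and 0.429% in the same order of libraries. Any level per library read therefore shares its denominator with these other RNAs, and whether a level differs because of them was not tested. In whole tissue, fewer cells of a type and less RNA per cell cannot be told apart. Of microRNA markers, the germ cell list (2 of 3 members in the table of microRNAs) summed to 5.55 RPM in sperm, 99.9 in testis and 8.25 in uterus. Gonadal miR-202-5p was at 0.128, 104.8 and 0 RPM in sperm, testis and uterus. The 4 epithelial microRNAs summed to 2600 RPM in sperm, 1.26 in testis and 438 in uterus, with none at 0 in any library. The leukocyte list (2 of 3 members in that table) was at 7.14, 0.0420 and 22.7 RPM, endothelial miR-126a-3p at 8.86, 0.0420 and 5.92 RPM, and the erythroid pair at 1.85, 1.98 and 77.4 RPM in sperm, testis and uterus. None of the 3 smooth muscle microRNAs is in the table of microRNAs, so muscle of the uterus was not checked. The part of these other cell types in the snoRNA reads was not tested.

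Snord reads were most frequent in sperm and least frequent in testis. Sperm held 62646 Snord reads, or 3993 RPM (3961 to 4024), testis 2300 reads, or 96.7 RPM (92.8 to 100.7), and uterus 10818 reads, or 681 RPM (669 to 694). The Snord level was 41.3-fold higher in sperm than in testis (39.6 to 43.1) and 5.86-fold higher in sperm than in uterus (5.74 to 5.98). The ratio of testis to uterus was 0.142 (0.1356 to 0.1485). Scaled to microRNA reads instead, which are few in testis, that ratio was 14.3, so the direction between testis and uterus depends on the denominator, while sperm kept the highest level under every denominator tried. Snora reads were far fewer. Sperm held 1240 of them, or 79.0 RPM (74.7 to 83.6), testis 20, or 0.841 RPM (0.514 to 1.30), and uterus 795, or 50.1 RPM (46.7 to 53.7). The Snora level was 94.0-fold higher in sperm than in testis (60.6 to 154). It was 1.58-fold higher in sperm than in uterus (1.44 to 1.73), but edgeR TMM scaling gave a ratio of 0.705 and DESeq2 size factors 0.627, so this direction also depends on the scaling. The ratio of testis to uterus was 0.0168 (0.0102 to 0.0261), and 1.69 per microRNA read. Both classes together were 0.407%, 0.00976% and 0.0731% of the sperm, testis and uterus libraries. Antisense matches to the same genes, a measure of antisense or chance matching, numbered 6 for sperm, 3 for testis and 0 for uterus.

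C/D box genes gave more reads than H/ACA box genes in every library. There were 50.5 Snord reads per Snora read in sperm (47.8 to 53.5), 115 in testis (74.3 to 189) and 13.6 in uterus (12.7 to 14.6). Divided by the number of genes in each class, these ratios were 20.6 in sperm, 46.9 in testis and 5.55 in uterus. Without the leading gene of each class there were 38.6, 129.0 and 16.7 Snord reads per Snora read in sperm, testis and uterus. Taking instead the median over genes with at least 10 reads in some library, a Snord gene had 2.98 times the reads of a Snora gene in sperm and 0.943 times in uterus. In testis the median Snora gene had no read.

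Most Snord genes were detected in sperm, and fewer elsewhere. At least 1 read was seen from 81, 59 and 74 of 98 Snord genes, and at least 100 reads from 30, 7 and 13 genes, in sperm, testis and uterus. Among Snora genes, 34 of 40 had a read in sperm, 10 in testis and 30 in uterus. In all 3 libraries, 57 Snord and 10 Snora genes had a read. No read came from 17 Snord genes, which are the 17 Snord116l copies, or from 5 Snora genes. Of the 34 Snord genes with at least 100 reads in some library, 27 had their highest RPM in sperm, 0 in testis and 7 in uterus. Of the 3 such Snora genes, 2 were highest in sperm and 1 in uterus. The limit of 100 reads was passed in sperm itself by 30 of these 34 Snord genes. The same count over all annotated genes was not made.

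Gene by gene, most members that could be compared stood higher in sperm than in testis, and the comparison with uterus was mixed. Genes were compared if the higher library held 100 reads or more. By this rule 30 of 34 members were 4-fold or more above testis in sperm, and 0 were 4-fold or more below it. Of all annotated genes, 36.6% passed the first limit and 21.7% the second. The median log2 ratio of sperm to testis was 6.28 for the members and 0.47 for all annotated genes. In testis itself only 7 Snord genes and 0 Snora genes reached 100 reads. Most of the 34 members thus entered through their sperm count alone, which favours a higher level in sperm. Of those 7, Snord57, Snord60 and Snord85 were 4-fold or more above testis in sperm. Snord2, Snord43, Snord98 and Snord118 were not. Between sperm and uterus, sperm was the higher library by 4-fold or more for 22 of 37 members and the lower for 6, against 49.6% and 5.08% of all genes. The share higher in sperm was therefore not far from the background, with a median log2 ratio of 3.21 for the members and 1.99 for all genes. Between testis and uterus, 0 of 15 members were at least 4-fold higher in testis and 11 at least 4-fold lower, where 58.8% and 16.0% of all genes were. There the median log2 ratio of testis to uterus was −4.46 for the members and 2.85 for all genes.

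**Figure D1:**
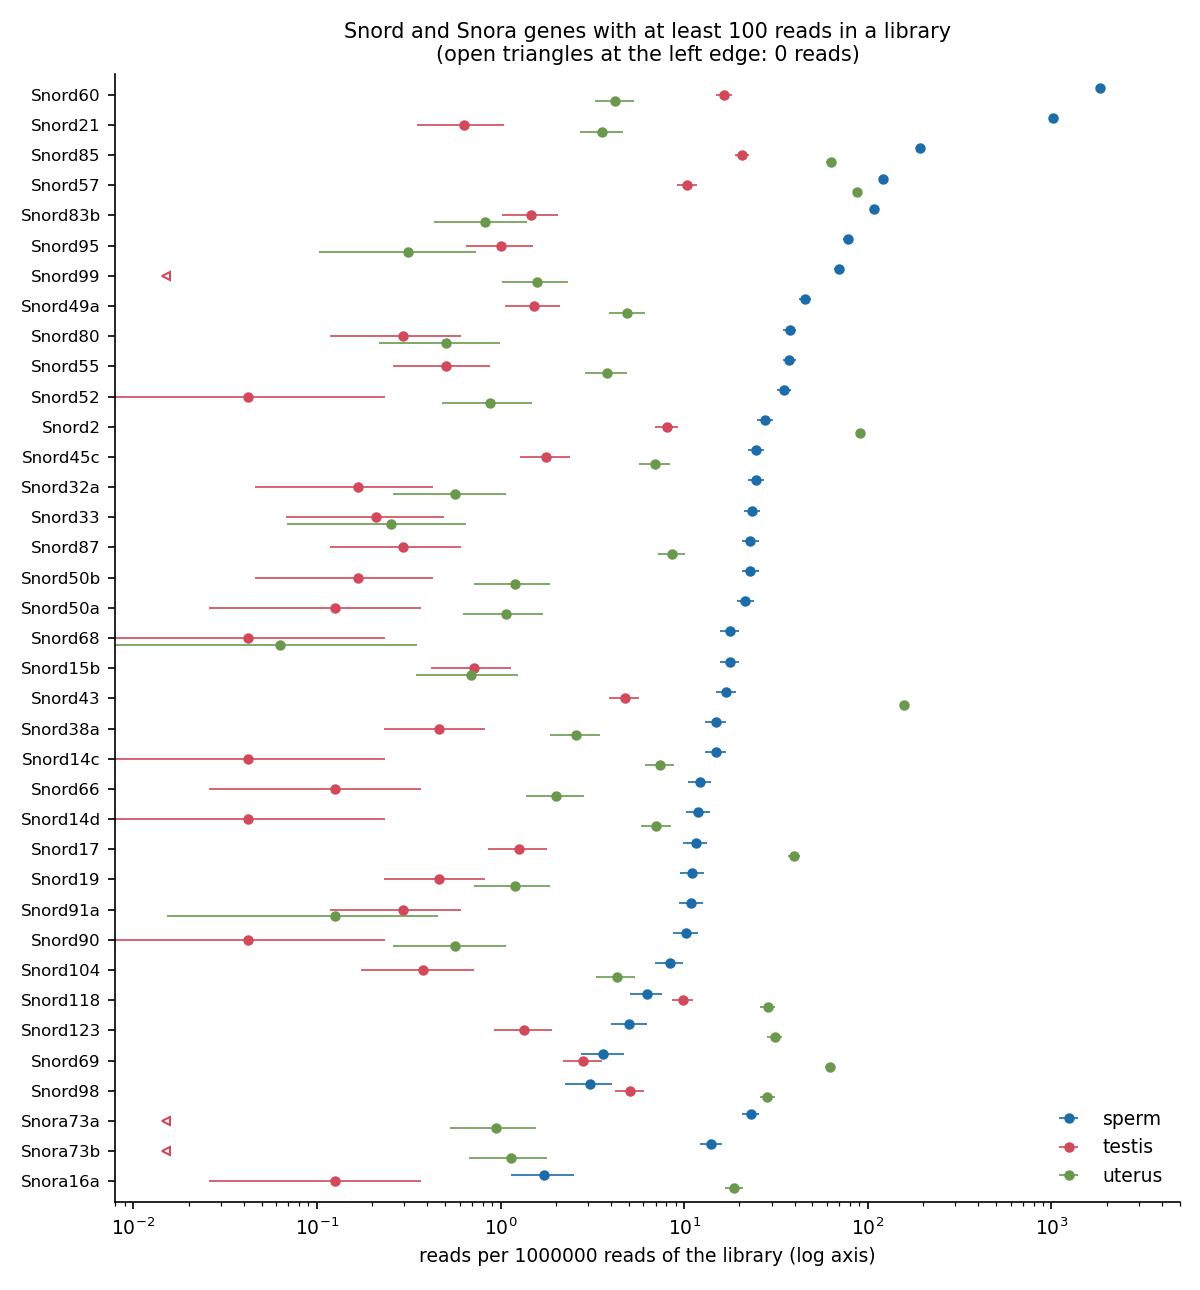
Level of each Snord and Snora gene with at least 100 reads in some library, in reads per 1000000 reads of the library on a log axis, with exact 95% Poisson intervals for 1 library each. Sperm points lie to the right for most genes, up to 1829 for Snord60, and open triangles mark 0 reads.

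Snord60 and Snord21 gave most of the Snord reads in sperm. Snord60, which guides methylation of 28S rRNA and lies within the non-coding gene Rab26os, had 28691 reads in sperm (1829 RPM), 393 in testis (16.5 RPM) and 67 in uterus (4.22 RPM). It gave 45.8%, 17.1% and 0.619% of all Snord reads in sperm, testis and uterus. Its level was 111-fold higher in sperm than in testis (100.2 to 123), 433-fold higher in sperm than in uterus (341 to 559) and 3.92-fold higher in testis than in uterus (3.02 to 5.15). Snord21, another guide for 28S rRNA, encoded in the gene of ribosomal protein Rpl5, had 15968 reads in sperm (1018 RPM), 15 in testis (0.631 RPM) and 57 in uterus (3.59 RPM). It was 1614-fold higher in sperm than in testis (978 to 2884) and 283-fold higher in sperm than in uterus (219 to 374). Together Snord60 and Snord21 gave 71.3% of the sperm Snord reads, 17.7% of those in testis and 1.15% of those in uterus. Without both genes the Snord level was 1146 RPM in sperm, 79.5 in testis and 674 in uterus, so that sperm stood 14.4-fold above testis and 1.70-fold above uterus. Sperm was the lower library in that comparison with uterus by edgeR TMM scaling, at a ratio of 0.760, and by DESeq2 size factors, at 0.676.

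For several genes 1 read sequence held most of the reads, and it differed between libraries for the same gene. In the median Snord gene with at least 10 reads, the share held by the leading read was 28.7% for sperm, 50% for testis and 29.8% for uterus. The leading read of Snord60 in sperm covered bases 1 to 25 and that in testis bases 1 to 28, while in uterus the leading read covered bases 52 to 78. These reads are shown because those of sperm and testis share a start and differ in the 3′ end.
Snord60, bases 1 to 25: agcccgTGATGAattaatttctgac
Snord60, bases 1 to 28: agcccgTGATGAattaatttctgacacc
Snord60, bases 52 to 78: tctgattacattataagaCTGAggctt
The 25-nt read had 27440 reads in sperm, which was 95.6% of the gene, 0 in testis and 0 in uterus. The 28-nt read had 2 reads in sperm, 372 in testis, which was 94.7% of the gene, and 6 in uterus. The form from the 3′ end had 0 sperm, 0 testis and 10 uterus reads (14.9% of the gene). The leading reads of sperm and testis thus shared the 5′ start and differed by 3 bases at the 3′ end. The uterus values rest on 67 reads of the gene.

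Snord21 reads in sperm came from the other end of the gene. The 3 leading forms in sperm share their last base, 2 bases past the D box.
Snord21, bases 51 to 89: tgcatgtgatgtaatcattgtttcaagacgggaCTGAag
Snord21, bases 52 to 89: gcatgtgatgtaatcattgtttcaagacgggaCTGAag
Snord21, bases 70 to 89: gtttcaagacgggaCTGAag
Snord21, bases 1 to 28: gccaaTGATGAcaccacactaactgagc
The 39-nt form had 5900 sperm reads and 0 testis or uterus reads. The 38-nt form had 4814, 4 and 0 reads in sperm, testis and uterus, and the 20-nt form 2668, 1 and 1. The read from the 5′ end led in uterus with 17 reads, 29.8% of the gene, against 53 reads in sperm (0.332%) and 2 in testis. Reads whose middle lay on the 5′ side of the midpoint were 0.501% of the sperm reads of Snord21, 13.3% of its testis reads and 66.7% of its uterus reads.

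Snord85 kept its form in all libraries. It had 3036 reads in sperm (193 RPM), 494 in testis (20.8 RPM), where it was the leading Snord gene with 21.5% of reads, and 1005 in uterus (63.3 RPM). It was 9.32-fold higher in sperm than in testis (8.47 to 10.3) and 3.06-fold higher in sperm than in uterus (2.85 to 3.29). The same 28-nt read led everywhere, and it holds a TGATGA and the D box within a single fragment. It had 1953 reads in sperm (64.3% of the gene), 344 in testis (69.6%) and 719 in uterus (71.5%). Snord57, a guide for 18S rRNA encoded in Nop56, whose protein is itself a core partner of C/D box snoRNAs, differed by a single base. Its leading read covered bases 1 to 29 in sperm and bases 2 to 29 in testis and uterus.
Snord57, bases 1 to 29: tggaaaggatgaacgaacttggcctgacc
Snord57, bases 2 to 29: ggaaaggatgaacgaacttggcctgacc
The 29-nt form had 794 of 1902 reads in sperm (41.7%), 43 of 247 in testis (17.4%) and 79 of 1385 in uterus (5.70%). The 28-nt form had 770 sperm reads (40.5%), 175 testis reads (70.9%) and 1171 uterus reads (84.5%). The gene stood at 121 RPM in sperm, 10.4 in testis and 87.2 in uterus, so it was 1.39-fold higher in sperm than in uterus (1.30 to 1.49), but by edgeR TMM scaling the ratio was 0.621 and by DESeq2 size factors 0.552, so this direction depends on the scaling.

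Some genes had the reverse order, with uterus above sperm. Snord43, a guide for 18S rRNA encoded in an intron of Rpl3, led in uterus. It had 266 reads in sperm (16.9 RPM), 113 in testis (4.75 RPM) and 2496 in uterus (157 RPM), with a sperm-to-uterus ratio of 0.108 (0.0947 to 0.122) and of testis to uterus of 0.0302 (0.0248 to 0.0365). Its reads switched sides between libraries.
Snord43, bases 36 to 57: acaaaTGATGAaccttttgacg
Snord43, bases 69 to 96: actctgtgctgaatgtcaagttCTGAtt
The 22-nt read that begins 5 bases before the C box core had 0 reads in sperm, 52 in testis (46.0% of the gene) and 1707 in uterus (68.4%). The 28-nt read that ends 2 bases past the D box led in sperm with 55 reads (20.7%), against 2 in testis and 21 in uterus (0.841%). Snord69, a guide for 28S rRNA encoded in Gnl3, had 57 reads in sperm (3.63 RPM), 67 in testis (2.82 RPM) and 986 in uterus (62.1 RPM). Its ratio of sperm to uterus was 0.0585 (0.0440 to 0.0764), and its ratio of sperm to testis, 1.29 (0.890 to 1.86), had an interval that includes 1.
Snord69, bases 7 to 34: aagcagTGATGAcagattggatctgact
Snord69, bases 38 to 72: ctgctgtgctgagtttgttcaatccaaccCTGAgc
The 28-nt read from the 5′ side had 0 sperm reads, 54 testis reads (80.6%) and 790 uterus reads (80.1%). The 35-nt read from the 3′ side had 19 sperm reads (33.3%), 1 testis read and 0 uterus reads.

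**Figure D2:**
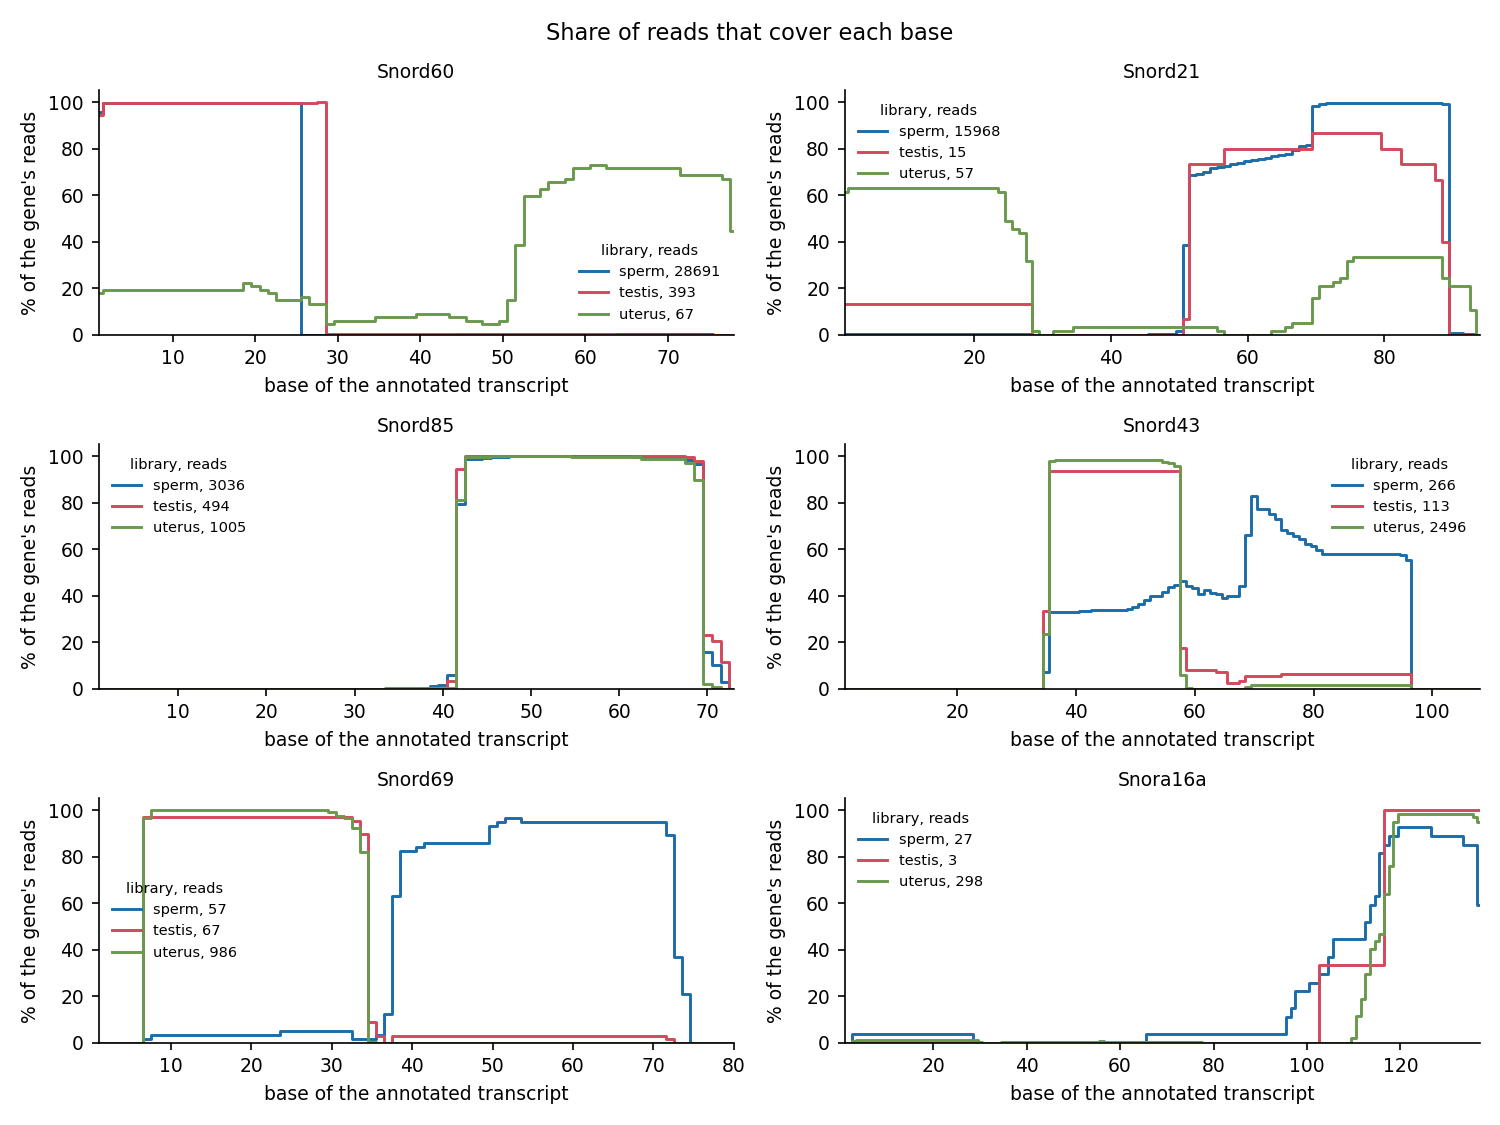
Share of a gene's reads that cover each base of the annotated transcript, for 5 Snord genes and Snora16a, with the number of reads per library in each legend. Snord85 reads coincide in the 3 libraries, Snord60 reads end at base 25 in sperm and at base 28 in testis, and Snord43 and Snord69 reads lie mostly on opposite sides in sperm and in uterus.

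Among other genes higher in uterus, Snord2, encoded in Eif4a2, had 433 sperm, 192 testis and 1438 uterus reads, a sperm-to-uterus ratio of 0.305 (0.273 to 0.340). Snord17, a long C/D snoRNA encoded in Snx5, had 181, 30 and 630 reads in sperm, testis and uterus. Its reads were on the 5′ side for 71.8% in sperm, 0% in testis and 0.159% in uterus. Snord98, a guide for 18S rRNA encoded in Ccar1, was lowest in sperm, with 48 reads (3.06 RPM), against 120 reads in testis (5.05 RPM) and 28.4 RPM in uterus. Its ratio of sperm to testis was 0.606 (0.4245 to 0.854). Its leading read covered bases 36 to 63 in every library. Scaled to microRNA reads, however, Snord43, Snord69 and Snord98 were each higher in sperm than in uterus, by 3.10, 1.68 and 3.09 times, as were Snord2 and Snord17, by 8.75 and 8.35 times, so the direction of all 5 rests on the denominator.

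Other genes had their highest level in sperm. Snord83b, an orphan C/D snoRNA encoded in Rpl3 like Snord43, had 1690 reads in sperm (108 RPM), 35 in testis (1.47 RPM) and 13 in uterus (0.819 RPM), so that it was 131.5-fold higher in sperm than in uterus (76.7 to 248). Per library read, the same host thus gave a gene that was highest in sperm and a gene that was highest in uterus. Per microRNA read, Snord43 too was higher in sperm than in uterus, as given above. Snord95, encoded in Rack1, had 1224 sperm, 24 testis and 5 uterus reads, a sperm-to-uterus ratio of 248 (106 to 764). Snord99, encoded in Snhg12, had 1092 reads in sperm (69.6 RPM), 0 in testis and 25 in uterus, and was at least 552-fold higher in sperm than in testis, with 3 counts in place of 0. Snord52 had 550, 1 and 14 reads in sperm, testis and uterus, but among reads of 18 to 28 nt its sperm-to-uterus ratio was 0.386. Its leading sperm read, 54.4% of the gene there, was 36 nt long and falls outside that range. In uterus that ratio rests on at most 14 reads, and neither its sperm count nor an interval is given. Snord68, encoded in Rpl13, had 278, 1 and 1 reads in sperm, testis and uterus. The 4 genes hosted by Rpl13a, Snord32a, Snord33, Snord34 and Snord35a, summed to 864 sperm, 11 testis and 34 uterus reads. They were 119-fold higher in sperm than in testis (66.2 to 239) and 25.7-fold higher in sperm than in uterus (18.3 to 37.4), and each of the 4 had more reads in sperm than in either other library. The 3 genes hosted by Gas5, a non-coding gene whose introns carry snoRNAs, summed to 685 sperm, 19 testis and 34 uterus reads. Snord80 gave 592, 7 and 8 of these, while Snord78 was more even, with 46, 12 and 24 reads in sperm, testis and uterus.

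Genes known for cleavage of the ribosomal RNA precursor behaved unevenly. The 9 members in the annotation summed to 986 reads in sperm (62.8 RPM), 241 in testis (10.1 RPM) and 679 in uterus (42.8 RPM), with a ratio of sperm to testis of 6.20 (5.38 to 7.17) and of sperm to uterus of 1.47 (1.33 to 1.62), but of 0.656 by edgeR TMM scaling and 0.584 by DESeq2 size factors. Snord118, the U8 snoRNA, which is needed for maturation of 28S and 5.8S rRNA, was the exception in testis with 234 of the 241 reads. It had 98 reads in sperm (6.25 RPM), 234 in testis (9.84 RPM) and 454 in uterus (28.6 RPM), and a ratio of sperm to testis of 0.635 (0.496 to 0.807). Its sperm-to-uterus ratio was 0.218 (0.174 to 0.272), and 6.28 per microRNA read. Its leading read was the same in all libraries.
Snord118, bases 48 to 75: gaaaaTGATGAttggagcttgcatgatc
This read had 27 reads in sperm (27.6% of the gene), 109 in testis (46.6%) and 364 in uterus (80.2%). Snord14c and Snord14d, near-identical copies in Hspa8 that act on 18S rRNA, had 233 and 187 reads in sperm, 1 and 1 in testis, and 117 and 112 in uterus, and most of these reads are shared by both copies. Their sperm-to-uterus ratios of 2.02 and 1.69 were 0.900 and 0.755 by edgeR TMM scaling, so this direction depends on the scaling too. Snord13 had 5, 2 and 20 reads and Snord22, the only member of the Snhg1 host list, 44, 3 and 58 reads in sperm, testis and uterus. Of the imprinted Prader-Willi region, Snord64 had 5, 3 and 2 reads and Snord107 had 2, 0 and 1 in sperm, testis and uterus, and the 17 Snord116l copies had none.

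H/ACA genes differed in which library they were highest in. Snora73a and Snora73b, which are copies of the U17 snoRNA in introns of Rcc1 and act in 18S rRNA maturation, led in sperm. Snora73a had 361 reads in sperm (23.01 RPM), 0 in testis and 15 in uterus (0.945 RPM), and Snora73b had 220 in sperm (14.02 RPM), 0 in testis and 18 in uterus (1.13 RPM), where 4 reads matched Snora73a alone and 7 Snora73b alone. Snora73a was at least 182-fold higher in sperm than in testis and 24.3-fold higher in sperm than in uterus (14.6 to 43.96). Among reads of 18 to 28 nt, the sperm-to-testis ratio of Snora73a was at least 4.39, with 3 counts in place of 0 in testis. Its sperm-to-uterus ratio was then 2.88, and that of Snora73b was 0.900. In uterus these rest on at most 15 and 18 reads, and their sperm counts and intervals are not given. Snora16a, hosted by Snhg12, led in uterus with 298 reads (18.8 RPM), against 27 in sperm (1.72 RPM) and 3 in testis, a sperm-to-uterus ratio of 0.0917 (0.0594 to 0.136), which was 2.63 per microRNA read. Snora61, from the same host, had 53 sperm, 0 testis and 67 uterus reads, with a sperm-to-uterus ratio of 0.800 (0.5475 to 1.17). Snora44, also from that host, had 95, 1 and 17 reads, and Snora62, encoded in Rpsa, 95, 0 and 2 reads in sperm, testis and uterus. In testis, Snora7a had the most reads, which were 6, against 72 in sperm and 40 in uterus. The leading reads of Snora73a in sperm and of Snora16a in uterus both ended at the last base of the transcript.
Snora73a, bases 167 to 205: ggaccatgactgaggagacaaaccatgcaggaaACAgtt
Snora16a, bases 119 to 137: attgtggaaaatgACAgct
The Snora73a read had 169 reads in sperm (46.8% of the gene), 0 in testis and 0 in uterus. The Snora16a read had 0 sperm, 0 testis and 55 uterus reads (18.5%). Reads of Snora36b had 18 in sperm, 3 in testis and 44 in uterus, Snora57 14, 1 and 89, Snora41 9, 1 and 77, and Snora3 9, 2 and 18.

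By number of reads, Snora reads came mostly from the 3′ end in sperm and uterus, while the end of origin of Snord reads depended on the gene. A read was assigned to the 5′ end if it began within the first 5 bases of the annotated transcript, to the 3′ end if it ended within the last 5, and otherwise to the inside. Snord reads were from the 5′ end for 56.4% in sperm (56.0 to 56.8), 37.1% in testis (35.1 to 39.1) and 22.3% in uterus (21.5 to 23.1), and from the 3′ end for 12.1%, 36.0% and 20.1% in sperm, testis and uterus. Without Snord60 the 5′ share in sperm was 19.8%. Without both Snord60 and Snord21 it was 37.0% in sperm, 24.3% in testis and 22.1% in uterus. The 3′ share was then 41.1%, 43.8% and 19.7% in sperm, testis and uterus. Snora reads were from the 3′ end for 68.9% in sperm (66.3 to 71.5), 5 of 20 reads in testis (8.66% to 49.1%) and 67.9% in uterus (64.5 to 71.2). That share was 50% in sperm and 37.3% in uterus by distinct sequence, 43.4% in sperm among reads of 18 to 28 nt, and 49.7% in uterus without Snora16a. The side of the midpoint that holds the middle of the read was also counted. Snord reads lay on the 5′ side for 57.2%, 55.2% and 59.0% in sperm, testis and uterus. Without Snord60 and Snord21 these Snord shares were 39.7%, 46.25% and 59.2%. Snora reads lay on the 3′ side for 80.3%, 75% and 81.8% in sperm, testis and uterus. By gene, among those with at least 10 reads, the 5′ side held most reads of 28 of 70 Snord genes in sperm, 13 of 23 in testis and 22 of 43 in uterus. For Snora genes the 3′ side held most reads of 12 of 16 in sperm and 10 of 14 in uterus, and no Snora gene reached 10 reads in testis.

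**Figure D3:**
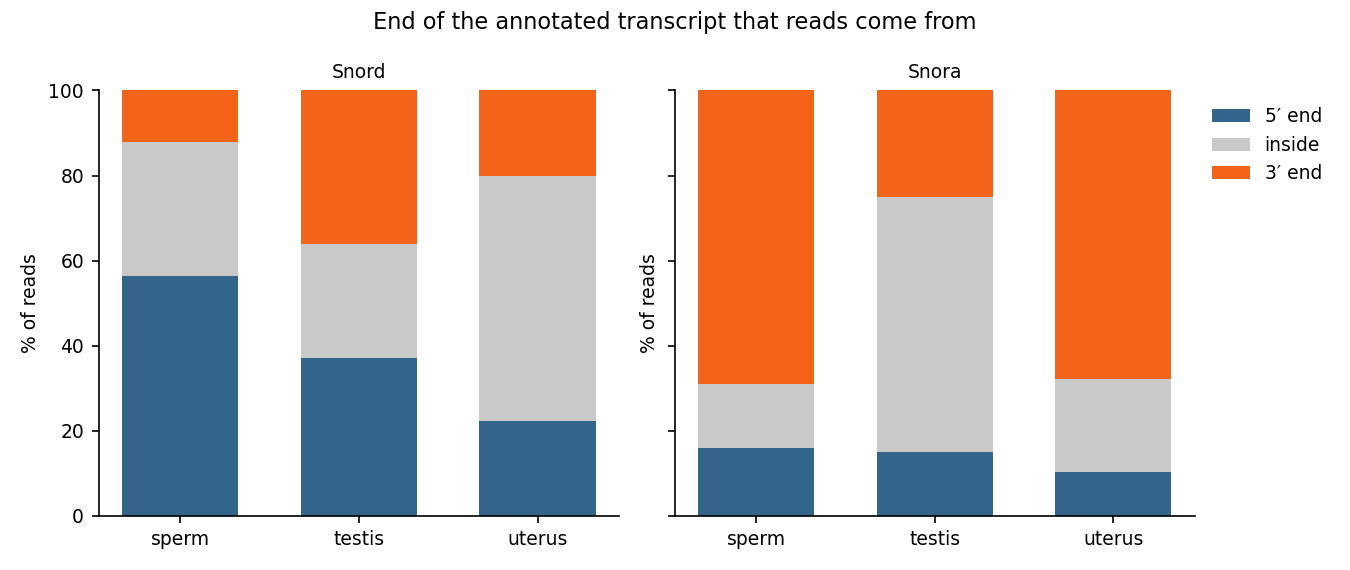
Share of Snord and Snora reads that begin within the first 5 bases of the annotated transcript (5′ end), end within the last 5 (3′ end) or do neither (inside), in percent of the reads of that class in each library. The 5′ share of Snord is highest in sperm at 56.4%, and the 3′ share of Snora is 68.9% in sperm and 67.9% in uterus, while the Snora bar of testis holds 20 reads.

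Measured from the boxes, most Snord reads on the 5′ side of genes with a C box core in the first 20 bases began 5 or 6 bases before it. A read had to match within the annotated transcript, so these distances are not independent of its ends. The core begins at base 7 of Snord60 and base 6 of Snord21, so no earlier start could be counted there. Such genes gave 33379 of the 35846 reads on the 5′ side in sperm, 618 of 1269 in testis and 1964 of 6381 in uterus, and the rest were not measured this way. Of these reads, those that began 5 or 6 bases before it were 99.2% in sperm (33107 of 33379), 98.1% in testis (606 of 618) and 98.6% in uterus (1937 of 1964). The start 6 bases before it alone held 90.0% in sperm, 82.2% in testis and 59.98% in uterus. Without Snord60 and Snord21, starts 5 or 6 bases before it held 95.2%, 94.6% and 98.9% in sperm, testis and uterus. This joint share thus does not rest on these genes. The start 6 bases before it alone then held 2592 of 4679 reads in sperm, 136 of 224 in testis and 1166 of 1910 in uterus. Its higher share in sperm and testis than in uterus did rest on these genes. By gene, the most frequent start was there in 26 of 28 genes in sperm, 6 of 6 in testis and 11 of 11 in uterus. The 3′ ends were less uniform. Reads on the 3′ side ended exactly 2 bases past the D box for 90.4% in sperm (23986 of 26524), 721 of 1030 in testis and 41.5% in uterus (1840 of 4434), and for 77.4%, 70.4% and 42.1% without Snord60 and Snord21. This was the most frequent end in 40 of 52 genes in sperm, 10 of 10 in testis and 11 of 23 in uterus. Snora reads on the 3′ side ended at the last base, 3 bases past the ACA, for 84.2% in sperm (710 of 843), 35.7% in testis (5 of 14) and 67.2% in uterus (428 of 637). Only Snora transcripts with the ACA 3 bases from the end were measured, so no later end could be counted.

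**Figure D4:**
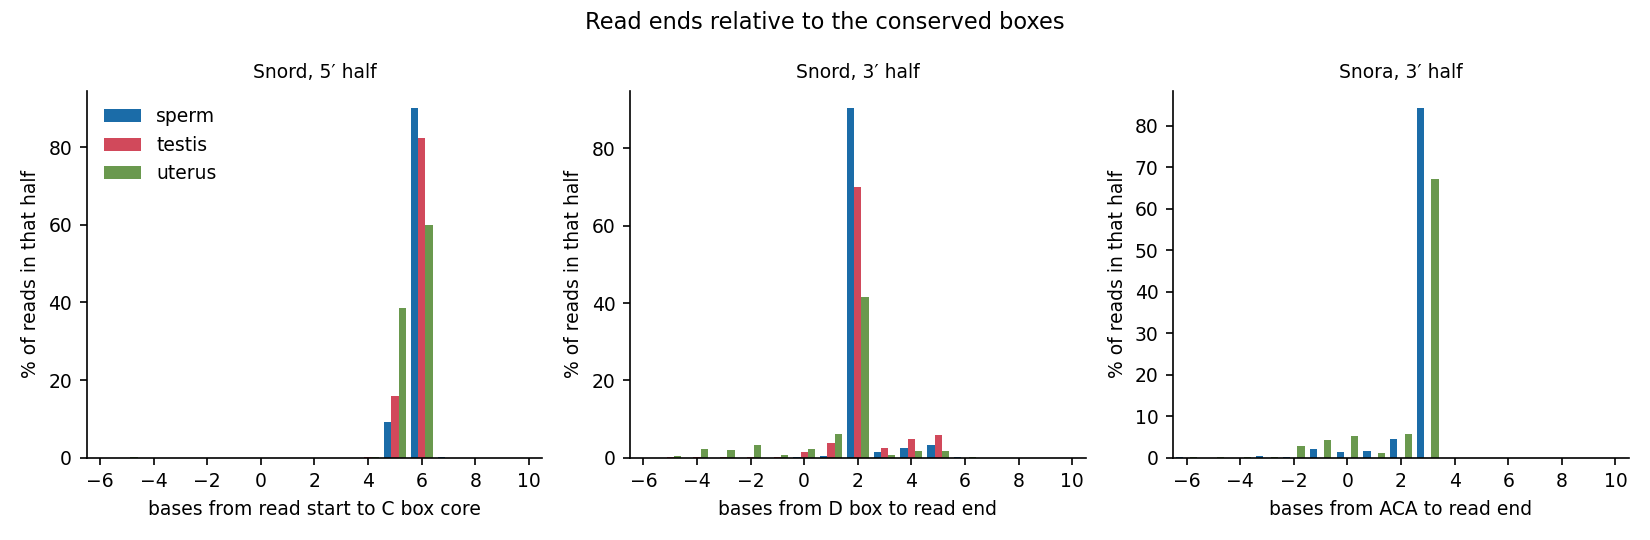
Distance in bases from the start of a read to the C box core (left, Snord reads on the 5′ side), from the D box to the end of a read (middle, Snord reads on the 3′ side) and from the ACA to the end of a read (right, Snora reads on the 3′ side, testis left out for its 14 reads), in percent of those reads per library. Starts pile up 5 and 6 bases before the C box core, and ends pile up 2 bases past the D box to 90.4% in sperm and 41.5% in uterus. Snora ends pile up 3 bases past the ACA, which is the last annotated base.

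Lengths differed between the classes and between the libraries. Snord reads had a median length of 25 nt in sperm, 28 nt in testis and 27 nt in uterus. The most frequent length was 25 nt in sperm with 44.7% of Snord reads, which is the Snord60 form, and 28 nt in testis (55.0%) and uterus (41.5%). Reads of 28 nt were 7.16% of the whole testis library and 0.796% of the whole uterus library. Without Snord60 the median in sperm was 34 nt. Snora reads had a median length of 36 nt in sperm, 21 nt in testis and 22 nt in uterus, with peaks at 39 nt in sperm (22.3%) and 21 nt in uterus (20.6%). Reads of 29 to 44 nt were 36.4% of Snord and 71.8% of Snora reads in sperm, 27.4% and 20.0% in testis, and 2.56% and 1.13% in uterus. Reads of 18 to 23 nt were 7.98% of Snord and 19.1% of Snora reads in sperm, 5.13% and 70% in testis, and 30.1% and 70.4% in uterus. Snora reads were thus longer than Snord reads in sperm and shorter in uterus by the median. The order in sperm depended on which reads were counted. Without the leading gene of each class the medians there were 34 nt for Snord and 32 nt for Snora, and by distinct sequence 31 nt and 29 nt. Without Snord60 and Snord21, however, the Snord median in sperm was 30 nt, below both Snora medians of 36 nt and 32 nt. In uterus the scarcity of long reads of any kind moves with this result, and its part in it was not tested. Counted by gene with at least 10 reads, the leading Snord read was 28 nt long in 10 of 70 genes in sperm, 8 of 23 in testis and 14 of 43 in uterus, and 29 nt or longer in 42, 12 and 1 of them.

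**Figure D5:**
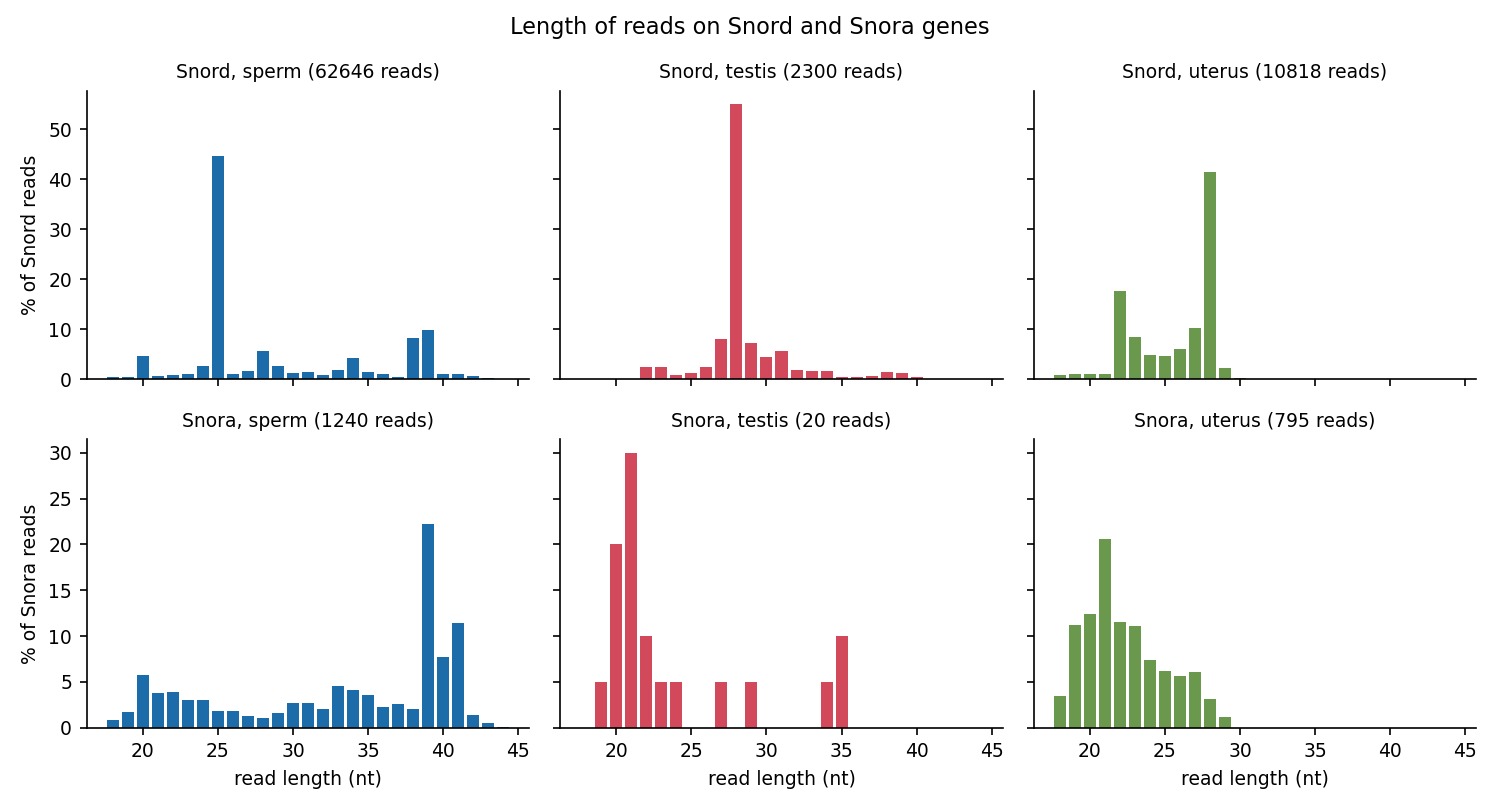
Length of Snord (top) and Snora (bottom) reads in sperm, testis and uterus, in percent of the reads of that class and library, with the number of reads above each panel. The Snord peak is at 25 nt in sperm and at 28 nt in testis and uterus, and Snora reads peak at 39 nt in sperm and at 21 nt in uterus.

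The exact form of the reads was compared between libraries gene by gene. Among Snord genes with at least 20 reads in both libraries, the side that held most reads was the same in 10 of 14 genes between sperm and testis, 23 of 31 between sperm and uterus and 10 of 12 between testis and uterus. The leading read was the identical sequence in 5 of 14 genes between sperm and testis, 3 of 31 between sperm and uterus and 8 of 12 between testis and uterus. The gene sets differ between these pairs, and the differences between the counts were not tested. The genes on opposite sides in sperm and testis were Snord17, Snord43, Snord49a and Snord69. The 8 on opposite sides in sperm and uterus were Snord17, Snord21, Snord43, Snord55, Snord60, Snord69, Snord82 and Snord100.

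Related nuclear RNAs gave a frame for these levels. All genes of biotype snoRNA, which include the members other than Snord43 and many unnamed copies, summed to 4991 RPM in sperm, 180 in testis and 1785 in uterus. The 46 scaRNA genes, guides of the Cajal body with the same boxes, summed to 61.6 RPM in sperm, 3.32 in testis and 87.7 in uterus, so that per library read uterus stood above sperm. Spliceosomal snRNA genes summed to 3714 RPM in sperm, 76.1 in testis and 102 in uterus. Sperm exceeded testis in all of these classes. Some reads also matched another annotated gene, such as a host transcript in which the snoRNA lies. They were 85.7%, 48.3% and 42.1% of the Snord reads of sperm, testis and uterus. Of the Snora reads they were 71.2%, 80.0% and 86.8% in sperm, testis and uterus. From the sequence alone snoRNA and host fragments cannot be told apart. Snord reads with 1 or 2 further 3′ bases that do not match were 1.09%, 4.87% and 4.13% as many as the fully matching ones in sperm, testis and uterus.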

How the data were processed

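Small RNA of sperm, testis and uterus was sequenced after adapter ligation and RT-PCR, per the labels' protocols. Each deposited table holds 1 line per read sequence and its count, a whole number, and the values show no normalization by the authors. The build mm9 is named in the submitters' processing notes; trimming and tools: not given in the sources used here. In the tables of sperm and testis, 1 line without a sequence was left out of each.

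Reads were matched in full and in sense to all GENCODE M21 transcripts (GRCm38; no coordinates were converted) with Python 3.11.15 and numba 0.67.0. A read was left out as a microRNA when it held, at any place, the first 18 bases of 1 of 1679 RefSeq mature microRNAs. It was also left out when it lay wholly within such a microRNA. This table of microRNAs is not complete. A read shared by genes counted for each gene and once per class. Levels are reads per 1000000 deposited reads with exact Poisson 95% intervals, shares have Clopper-Pearson intervals and ratios conditional binomial intervals (scipy 1.17.1). A count of 0 was set to 3 in ratios, which are then bounds, and genes with at most 3 reads in both libraries got no ratio. A gene was counted as apart at 4-fold if the higher library held 100 reads or more.

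Named genes are the 6 Snord and 4 Snora genes with most reads in each library, the 3 largest and 3 smallest ratios of each pair, and the members of 7 gene lists; 1 list (Dlk1-Dio3) had no member in the annotation, and 1 held only Snora36b. Snord49a, Snord55, Snord82 and Snord100 are named beyond this rule, after their values were seen. The members and lists were chosen with earlier results of these data known. Other denominators (microRNA reads, annotated reads, TMM of edgeR 4.0.16, size factors of DESeq2 1.42.0 in R 4.3.3), read lengths, end windows, filters and matching rules were tried. Leaving out Snord60 and Snord21, the side of the midpoint, ends set from the boxes, the 18 to 28 nt range for lengths and the rescaled sums over genes were chosen after the data were seen. Matching and calling were tested on simulated reads.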

Additional observations from a re-analysis of the deposited data

Results flagged for a closer look

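Some reads on snoRNA genes were left out because they are the sequence of a mature microRNA. On Snora36b, which contains the miR-664 hairpin, such reads numbered 116 (sperm), 8 (testis) and 257 (uterus), against 18, 3 and 44 counted reads in sperm, testis and uterus. On Snora19, which contains miR-3084, there were 16 in sperm, 0 in testis and 1 in uterus. On Snora34, which contains miR-1291, there were 1 in sperm, 0 in testis and 6 in uterus. Antisense reads to the members were 6 in sperm, above the 3 counts that 0 allows.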

How the results depend on the processing

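No paired analysis was possible because each group had 1 library, and leaving out a replicate was not possible for the same reason. Depth limits Snora in testis, where 20 reads underlie every value. The denominator changed directions: per microRNA read, the Snord ratio of testis to uterus was 14.27 and the Snora ratio 1.689, and per annotated read the Snord ratio was 1.033. The cause of these changes was not tested. Of 233 alternatives for the values below, 98 kept their value, 128 moved by more than the counting interval and 7 changed direction. Of 333 alternatives for single genes, 45 crossed the 4-fold limit, 32 changed direction and the rest kept their size class, where a direction was given to a ratio past 4-fold or with an interval that leaves out 1.

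The Snord ratio of sperm to testis, 41.29, was 11.79 per microRNA read, 46.23 per annotated read, 23.59 by TMM, 20.91 by DESeq2 factors, 39.24 at 18 to 28 nt, 14.87 at 20 to 24 nt, 43.44 for sequences with at least 2 reads and 14.41 without Snord60 and Snord21. In that order, the Snord ratio of sperm to uterus, 5.859, was 168.3, 47.78, 2.617, 2.328, 20.40, 16.84, 6.208 and 1.702. The Snord ratio of testis to uterus, 0.1419, was also 0.1109 by TMM, 0.1113 by DESeq2 factors, 0.5200 at 18 to 28 nt, 1.133 at 20 to 24 nt and 0.1181 without Snord60 and Snord21. The Snora ratio of sperm to testis, 93.98, was 26.84 per microRNA read, 53.69 by TMM, 47.60 by DESeq2 factors, 35.97 at 18 to 28 nt, 5.781 at 20 to 24 nt and 380.8 for sequences with at least 2 reads. For sperm to uterus, 1.578, it was 45.34 per microRNA read, 12.87 per annotated read, 0.7049 by TMM, 0.6270 by DESeq2 factors, 2.405 at 18 to 28 nt, 4.729 at 20 to 24 nt and 1.728 for sequences with at least 2 reads. For testis to uterus, 0.01679, it was 0.1223 per annotated read, 0.06685 at 18 to 28 nt, 0.8181 at 20 to 24 nt and 0.004537 for sequences with at least 2 reads.

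Snord reads per Snora read in sperm, 50.52, were 6.037 by distinct sequence, 60.39 for sequences with at least 2 reads, 25.15 without reads on other genes, 38.63 without the leading genes, 113.8 at 18 to 28 nt, 25.35 at 20 to 24 nt and 2.980 as a median over genes. In testis, 115.0, they were 17.67, 529.5 and 297.5 under the first 3 of these and 9.857 at 20 to 24 nt. In uterus, 13.61, they were 3.041, 16.81, 59.66 and 16.74 under the first 4, 7.118 at 20 to 24 nt and 0.9429 as a median over genes, which changed direction.

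The Snord 5′ share in sperm, 56.42%, was 25.18% by distinct sequence, 56.95% for sequences with at least 2 reads, 36.66% without reads on other genes, 19.84% without the leading gene, 77.48% at 18 to 28 nt, 29.57% at 20 to 24 nt, 53.17% with a window of 3 bases, 56.83% by equal parts of the gene, 57.22% by side of the midpoint and 59.92% by the boxes. In testis, 37.09%, it was 26.73% by distinct sequence, 9.832% without reads on other genes, 47.23% without the leading gene, 39.25% at 18 to 28 nt, 5.797% at 20 to 24 nt, 33.26% and 40.26% with windows of 3 and 10 bases, 40.35% by equal parts, 55.17% by side and 75.91% by the boxes. In uterus, 22.30%, it was 23.85%, 11.03%, 28.98%, 5.290% (20 to 24 nt), 17.66%, 31.75%, 31.97%, 58.99% and 58.95% under the same settings, without that of 18 to 28 nt. The values by the boxes leave out reads of genes without both boxes in the first and last 20 bases. These were 11.68%, 65.17% and 69.64% of Snord reads in sperm, testis and uterus. Over all Snord reads the 5′ share by the boxes was 52.92%, 26.43% and 17.90%. The Snora 3′ share in sperm, 68.95%, was 50% by distinct sequence, 74.93% for sequences with at least 2 reads, 61.62% without reads on other genes, 56.54% without the leading gene, 43.43% at 18 to 28 nt, 42.56% at 20 to 24 nt, 80.32% by side and 76.72% by the boxes. The last value leaves out 16.85% of the Snora reads in sperm, from genes without the ACA 3 bases from the end. Over all of them it was 63.79%. In testis the Snora 3′ share was 50% for sequences with at least 2 reads and 75% by side. In uterus, 67.92%, it was 37.30% by distinct sequence, 79.32% for sequences with at least 2 reads, 57.14% without reads on other genes, 71.22% without hairpin reads, 49.70% without the leading gene, 60.13% with a window of 3 bases, 74.47% by equal parts and 81.76% by side.

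The Snord median length was 31 nt in sperm, 29 nt in testis and 24 nt in uterus by distinct sequence, 28 nt in sperm and 26 nt in uterus without reads on other genes, and 34 nt in sperm and 28 nt in uterus without the leading gene. The Snora median in sperm was 29 nt by distinct sequence, 39 nt for sequences with at least 2 reads, 38 nt without reads on other genes, 32 nt without the leading gene and 22 nt at 18 to 28 nt, and that in testis was 20.5 nt for sequences with at least 2 reads.

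Genes 4-fold higher in sperm than in testis, 30, numbered 79 at 10 reads, 86 above 3 reads and 18 at 18 to 28 nt, and those lower numbered 2 per microRNA read. Genes 4-fold higher in sperm than in uterus, 22, numbered 51 at 10 reads and 54 above 3 reads, and those lower, 6, numbered 0 per microRNA read, 0 per annotated read and 1 at 18 to 28 nt. Genes 4-fold higher in testis than in uterus numbered 9 per microRNA read, 1 per annotated read, 1 at 18 to 28 nt and 1 at 2-fold, and those lower, 11, numbered 0 per microRNA read, 5 per annotated read, 45 at 10 reads and 49 above 3 reads. For these other settings, neither the number of members compared nor the share of all annotated genes is given. The counts under them therefore cannot be set against a background.

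Among single genes, the ratio of sperm to uterus changed direction per microRNA read for Snora16a (2.634), Snord118 (6.275), Snord17 (8.351), Snord2 (8.753), Snord43 (3.098), Snord69 (1.680) and Snord98 (3.094). Per annotated read it did so for Snord118 (1.781), Snord17 (2.370) and Snord2 (2.484). It also did so by TMM and by DESeq2 factors for Snord14c (0.9000 and 0.8006), Snord14d (0.7546 and 0.6712) and Snord57 (0.6207 and 0.5521), and at 18 to 28 nt for Snora73b (0.9002) and Snord52 (0.3858). Those ratios at 18 to 28 nt rest in uterus on at most 18 reads for Snora73b and 14 for Snord52, without an interval. The ratio of testis to uterus changed per microRNA read for Snord118 (34.61), Snord17 (3.197), Snord2 (8.965), Snord43 (3.040), Snord57 (11.97), Snord69 (4.562), Snord85 (33.00) and Snord98 (17.86), per annotated read for Snord118 (2.505), Snord85 (2.389) and Snord98 (1.293), and at 18 to 28 nt for Snord118 (1.566) and Snord85 (1.254). Per microRNA read the ratio of sperm to testis of Snord2 was 0.9764.

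Sums over genes were also rescaled, a choice made after the data were seen. Without Snord60 and Snord21, the Snord ratio of sperm to uterus was 0.7602 by TMM and 0.6762 by DESeq2 factors, and that of testis to uterus 11.88 per microRNA read. For the genes of pre-rRNA cleavage, these were 0.6563, 0.5838 and 23.83, with testis to uterus at 1.725 per annotated read. Testis to uterus was 37.52 per microRNA read and 2.716 per annotated read for the Gas5 genes, and 21.72 and 1.573 for the Rpl13a genes.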
